A study of Homo sapiens with 2 samples.

Results

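Internal coding exon peaks are places where MYBL2 ChIP signal peaked over protein-coding sequence, well away from gene starts and gene ends. A member was a deposited peak whose summit, the base of highest signal, lay in a coding exon of the canonical transcript of a protein-coding gene. The summit also had to lie more than 2000 bp from every transcription start site (TSS) of a protein-coding or long non-coding RNA gene, and more than 1000 bp from the 3′ end of that transcript. Of 66954 deposited peaks, 567 met the rule, which is 0.847% (exact binomial interval at 95%, 0.779 to 0.919%). They lay in 537 coding exons of 458 genes. A further 2031 summits in coding exons were left out because they lay within 2000 bp of a TSS, and 63 more because of the 3′ end alone.

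The study profiled cells of the Ewing sarcoma line A673, labelled WT, by chromatin immunoprecipitation followed by sequencing (ChIP-seq), with 1 MYBL2 library and 1 library of input DNA made without an antibody. The antibody is labelled as anti-MYBL2, and the methods of the study describe it as directed at the phosphorylated, activated protein. Each group held 1 library, so the values carry no replicate error, ChIP and input were not tested against each other, and intervals cover counting error only. No transcript or protein level was measured in these 2 libraries, so the label of the cells could not be checked against markers.

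MYBL2, also called B-MYB, is a transcription factor of the MYB family that is made and phosphorylated in dividing cells. With the MuvB proteins it takes part in switching on genes for mitosis, and it is best known at promoters, where MuvB reads the cell cycle genes homology region (CHR). Ewing sarcoma cells carry a fusion of EWSR1 with an ETS factor, most often FLI1, and MYBL2 is one of the genes this fusion drives. Coding exons are short stretches of conserved sequence between much longer introns, and they are richer in GC than introns.

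The sequences at the summits of the 8 members with the largest fold enrichment are printed to show what kind of DNA carried the strongest signal over coding sequence. Each is the 101 bases centred on the summit in the reference genome (GRCh37, whose coordinates are those of hg19), read 5′ to 3′ on the strand of the gene. Capitals mark the MYB site, AACNG on either strand, so that CNGTT is also a match.
SYP (chrX:49047868-49047968, minus strand): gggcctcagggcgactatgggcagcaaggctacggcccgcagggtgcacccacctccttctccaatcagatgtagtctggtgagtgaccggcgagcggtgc
ZNF771 (chr16:30429335-30429435, plus strand): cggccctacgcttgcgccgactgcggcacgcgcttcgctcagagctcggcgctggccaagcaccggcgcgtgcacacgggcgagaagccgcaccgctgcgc
CEP295 (chr11:93461835-93461935, plus strand): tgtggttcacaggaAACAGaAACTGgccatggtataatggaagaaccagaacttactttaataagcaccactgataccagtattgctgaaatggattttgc
IRS2 (chr13:110435275-110435375, minus strand): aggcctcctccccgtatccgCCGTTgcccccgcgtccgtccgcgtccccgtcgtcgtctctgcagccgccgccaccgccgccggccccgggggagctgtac
HOOK1 (chr1:60312710-60312810, plus strand): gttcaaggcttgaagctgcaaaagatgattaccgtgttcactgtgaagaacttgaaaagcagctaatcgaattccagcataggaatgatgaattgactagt
ZFPM1 (chr16:88600803-88600903, plus strand): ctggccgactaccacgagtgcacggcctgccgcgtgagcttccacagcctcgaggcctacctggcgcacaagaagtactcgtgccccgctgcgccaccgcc
DIPK1B (chr9:139617485-139617585, plus strand): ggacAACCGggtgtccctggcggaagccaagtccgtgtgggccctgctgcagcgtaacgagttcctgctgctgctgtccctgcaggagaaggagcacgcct
DIPK1A (chr1:93309366-93309466, minus strand): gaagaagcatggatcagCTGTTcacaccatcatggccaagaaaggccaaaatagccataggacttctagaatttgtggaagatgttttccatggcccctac

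These 8 windows shared no single pattern of letters among those searched. ZNF771, IRS2 and ZFPM1 were GC-rich, at 75.2, 78.2 and 69.3% GC with 18, 17 and 11 CpG dinucleotides. CEP295 and HOOK1 were AT-rich at 39.6% GC, and CEP295 and DIPK1A held 0 CpG. The MYB site was in the windows of CEP295, IRS2, DIPK1B and DIPK1A, with 2 copies in CEP295, and 0 of the 8 held a CHR (TTTGAA or TTTAAA on either strand).

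The height of a peak was read from its deposited fold enrichment and from the fragments behind it, which could be recovered. Fold enrichment is a linear ratio, (pileup + 1) over (background + 1), where the pileup is the number of ChIP fragments over the summit and the background is the local number expected from the scaled input. The smallest background the caller could use, its floor, was 3.45 fragments. SYP, which encodes the synaptic vesicle protein synaptophysin, had the largest fold enrichment of all members, 14.2, from a pileup of 62 (exact Poisson interval at 95%, 47.5 to 79.5) over that floor. Its summit lay 24 bp before the end of the coding sequence in coding exon 6 of 6. It ranked 1724 of the 66954 peaks, so many peaks elsewhere had a larger ratio.

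Wide peaks were frequent at the top of the list. ZNF771, a zinc finger gene, had a fold enrichment of 13.3 from a pileup of 58 (44.04 to 74.98) in its last coding exon, under a peak of 1783 bp. CEP295, which encodes a protein of centriole elongation, had 13.03 from a pileup of 57 (43.2 to 73.9). That peak was 5957 bp wide, ran into TAF1D, a gene on the other strand, and covered 6 small nucleolar RNA genes inside it, SNORA32, SNORA25, SNORA1, SNORA8, SNORD6 and SNORD5. Only 13.6% of the bases of the peak were coding in the canonical transcript of CEP295, and coding bases of TAF1D were not counted.

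IRS2, the adaptor that carries signals from the insulin and insulin-like growth factor receptors, had 11.7 from a pileup of 51 (38.0 to 67.1) in a first coding exon of 4012 bp. Its peak was the widest of all members, at 11660 bp, and covered the start of IRS2 itself and that of a long non-coding RNA gene on the other strand. HOOK1, an adaptor between cargo and the dynein motor, had the largest pileup of any member, 85 (67.9 to 105), over a background of 6.62, which gave a fold enrichment of 11.3. The HOOK1 summit lay 13195 bp from the nearest TSS, in coding exon 10 of 22, and 6.25% of its 7262 bp peak was coding. ZFPM1, a cofactor of GATA factors, had 11.01 from a pileup of 48 (35.4 to 63.6), and all of its 1053 bp peak lay in the last coding exon.

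DIPK1B and DIPK1A, related genes of a kinase-like family, both carried a strong peak in coding exon 5 of 5. DIPK1B had 10.2 from a pileup of 57 (43.2 to 73.9), and its peak overlapped the small nucleolar RNA host gene SNHG7. DIPK1A had 9.99 from a pileup of 51 (38.0 to 67.1), and its peak overlapped RPL5, a ribosomal protein gene, and SNORA66, a small nucleolar RNA gene within it. Of all members, 6 had a peak base within 1000 bp of a TSS of a protein-coding or long non-coding RNA gene. They were those in CEP295, IRS2, DIPK1B, DIPK1A, ENO1 and LRRC41. The 7 members that followed DIPK1A in rank had fold enrichments between 9.21 and 7.09. They were CCDC88C, a regulator of Wnt signalling, CTF1, a cytokine of the interleukin-6 family, ENO1, the glycolytic enzyme enolase, LMTK3, a kinase, CFAP57, a protein of motile cilia, NR2F6, an orphan nuclear receptor, and RP1, a microtubule protein of photoreceptors. Of these 15 members 11 had peaks wider than 1000 bp, against 40 of all 567.

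**Figure D1:**
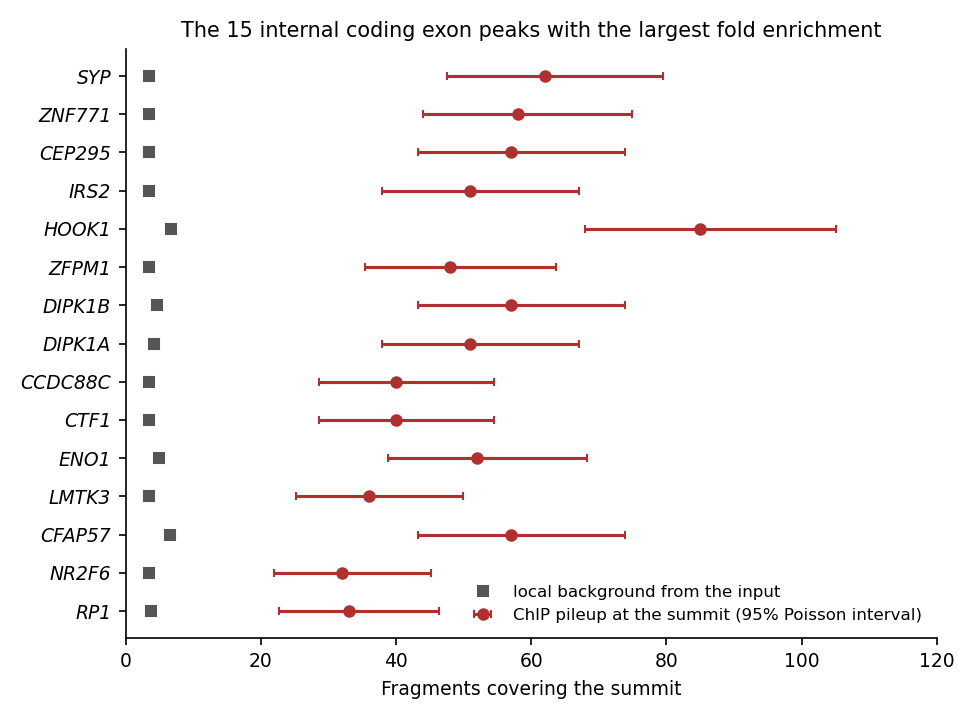
ChIP fragments over the summit (red points, bars are exact Poisson intervals at 95%) and local background (grey squares) for the 15 members with the largest fold enrichment, in fragments, ordered from SYP at 14.2 down to RP1 at 7.09. HOOK1 has the largest pileup, 85. All 15 lower interval bounds lie above their backgrounds, which follows from how peaks were called and how these 15 were chosen.

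A typical member was much lower. The median fold enrichment of members was 3.53 (order-statistic interval at 95%, 3.40 to 3.59), with a range of 2.05 to 14.2. The 5 members nearest that median were in FNDC3A, UHRF1, CNBP, FAM184A and MIB1. The first 4 each had a pileup of 19 (11.4 to 29.7) over a background of 4.66. UHRF1 encodes a factor that maintains DNA methylation, and CNBP a zinc finger protein that binds nucleic acids. The weakest member, in ZNF84, had a pileup of 24 (15.4 to 35.7) over a background of 11.2, for a fold enrichment of 2.05. EPC1, a subunit of the NuA4 acetyltransferase complex, had 2.13 from a pileup of 25 (16.2 to 36.9), and STAG2, a cohesin subunit, had 2.24 from a pileup of 20 (12.2 to 30.9). The pileups of the 3 weakest were thus as large as those of typical members, and their backgrounds were higher. This follows from how peaks were called and how these 3 were chosen.

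As a group the members matched distal intronic peaks in height and fell below promoter peaks. Distal intronic peaks are the 25045 summits in introns of canonical transcripts under the same 2 distance limits. Promoter peaks are the 22943 peaks with a base within 1000 bp of a TSS of a protein-coding or long non-coding RNA gene. Intronic peaks had a median fold enrichment of 3.46 (3.44 to 3.48), promoter peaks 4.75 (4.72 to 4.84) and all peaks 3.79. A fold enrichment of at least 5 was reached by 51 members, 8.99% (6.77 to 11.7%), against 24% of all peaks. The share was 8.64% (8.29 to 8.99%) of intronic and 47.2% of promoter peaks, so the members' share overlapped that of introns in its interval and was well under the share over the whole list. Members and intronic peaks shared a median pileup of 18 fragments, and a single pileup of 18 has a Poisson interval of 10.7 to 28.4. Promoter peaks had a median of 24.

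**Figure D2:**
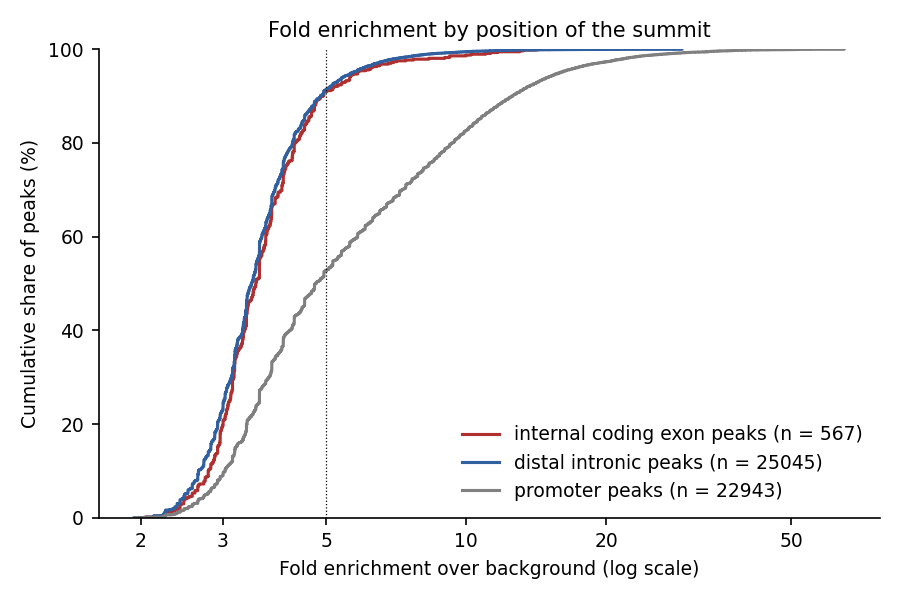
Cumulative share of peaks (percent) by fold enrichment over background (log scale) for internal coding exon peaks, distal intronic peaks and promoter peaks, with a dotted line at 5. The coding exon and intronic curves run together, with medians of 3.53 and 3.46, and the promoter curve lies to their right, with a median of 4.75.

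The members above 5 differed from the rest in width, and their base composition was mixed. Of the 40 members wider than 1000 bp, 23 had a fold enrichment of at least 5, and their median was 5.63. Among the other 527, 28 reached 5 and the median was 3.46. The 51 stronger members had a median GC content of 59.4% within 50 bp of the summit, against 47.5% over all members, and 24 of them stood on the background floor. Background was lower where GC content was higher over the members. In 3 classes of rising GC content, with 207, 173 and 187 members, the median background was 4.66, 4.34 and 3.69. In the same order 7.73, 12.7 and 41.2% stood on the floor, and the median fold enrichment was 3.32, 3.49 and 3.71. The part of the background and of the GC content in the larger ratios was not tested.

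The peaks were seldom confined to the exon that held their summit. The median member was 280 bp wide, with a range of 164 to 11660 bp, and the median coding exon under a summit was 190 bp (176 to 202 bp). A median of 57.3% of the bases of a member were coding in its own transcript, and 132 members (23.3%) lay wholly inside 1 coding exon. The summit lay a median of 53 bp from the nearer exon edge, and 142 members (25.04%) had it within 25 bp of an edge. The placement of a summit is no finer than the fragments, whose estimated length was 164 bp, so many of these signals cannot be told apart from signals of the flanking intron. The summits lay a median of 5887 bp from the nearest TSS, 23338 bp from the start of their own transcript and 8858 bp from its 3′ end.

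Peaks just inside and just outside the distance limits had fold enrichments in overlapping ranges. The members nearest the TSS limit were in GSE1, at 2004 bp with a fold enrichment of 3.37, and SBNO2, at 2007 bp with 5.62. Just outside it lay peaks in RBM20, at 1992 bp with 2.65, and WFIKKN1, at 1988 bp with 4.49. The members nearest the 3′ end limit were in SPHK2, at 1007 bp with 4.49, and WTAP, at 1054 bp with 3.15, and the nearest peaks outside it were in USP1, at 981 bp with 2.24, and RFC5, at 972 bp with 3.72.

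Per length of sequence, summits were denser in internal coding exons than in distal introns when all of both were pooled. The 16.7 Mb of coding sequence that met the rule held 34.0 summits per Mb (exact Poisson interval, 31.3 to 36.9). The 902 Mb of distal intron held 27.8 per Mb (27.4 to 28.1), and the genome without assembly gaps 23.6. The ratio of exon to intron density was 1.23 (exact conditional interval, 1.13 to 1.33). Peaks cluster, with a median of 1177 bp from a member to the next summit, so these intervals are narrower than the true uncertainty.

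The ratio was below the pooled value in each of 4 zones set by distance, and the zones were not tested against each other. Of the coding sequence, 24.4% was within 5000 bp of the 3′ end of its transcript, against 2.84% of the intron sequence, and summits of both kinds were denser there. Between 1001 and 5000 bp from the 3′ end, coding exons held 52.7 summits per Mb (45.9 to 60.3) and introns 48.1 (45.5 to 50.9), a ratio of 1.10 (0.944 to 1.27). Further than 5000 bp from it the values were 27.9 (25.1 to 31.02) and 27.2 (26.8 to 27.5), a ratio of 1.03 (0.924 to 1.14). Within 2001 to 5000 bp of a TSS, coding exons held 46.2 per Mb (40.6 to 52.2) and introns 44.5 (43.4 to 45.5), a ratio of 1.04 (0.912 to 1.18). Further than 5000 bp from a TSS the values were 28.1 and 24.2, a ratio of 1.16 (1.03 to 1.30). The intervals of the zone ratios overlapped one another. With introns weighted to the GC content of the coding sequence, the pooled ratio was 1.16 (1.06 to 1.26).

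**Figure D3:**
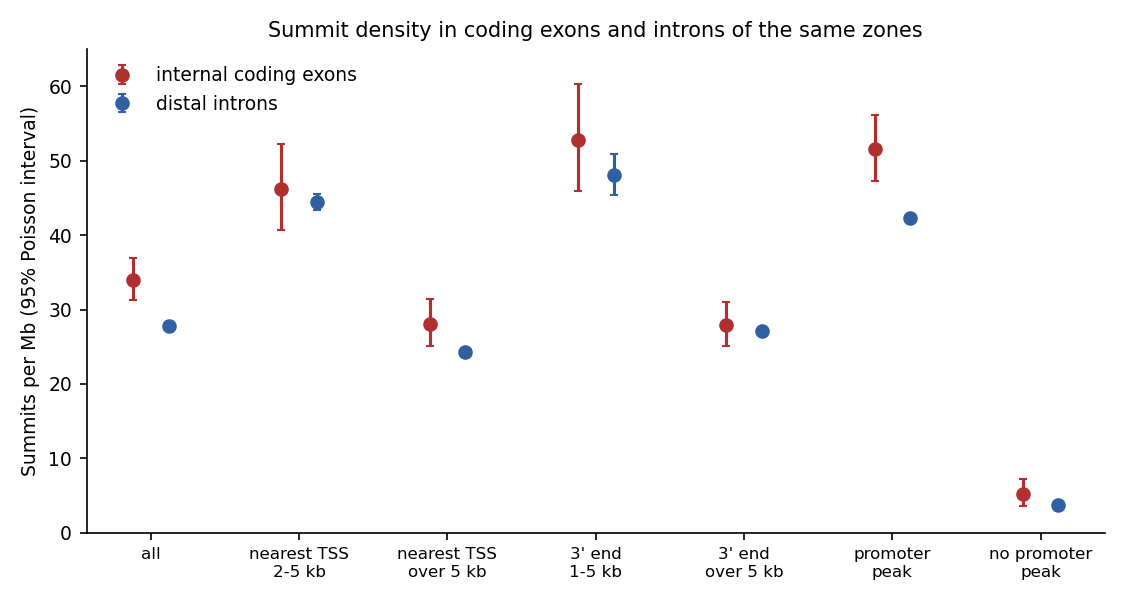
Summits per Mb in internal coding exons (red) and distal introns (blue), with exact Poisson intervals at 95%, over all sequence, by distance from the nearest TSS and from the 3′ end of the transcript, and in genes with and without a promoter peak. Exon and intron intervals overlap in both zones by the 3′ end, such as 27.9 and 27.2 further than 5000 bp from it, and do not overlap further than 5000 bp from a TSS (28.1 and 24.2) or in genes with a promoter peak (51.6 and 42.3). Both are lowest in genes without a promoter peak.

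Summits were about as dense at the centres of coding exons as further out, and the highest values lay just upstream. Around the centres of 95214 coding exons the density was 32.9 per Mb (30.4 to 35.6) within 100 bp of the centre and 30.7 (29.5 to 31.9) at 1000 to 1500 bp from it, counting exon and intron sequence under the same limits. For the 3451 exons over 500 bp, which are long enough to hold a whole peak, the values were 39.5 (26.0 to 57.5) and 36.4 (28.95 to 45.1). For exons of up to 150 bp they were 33.2 (30.0 to 36.6) and 30.0 (28.5 to 31.5). Upstream of the centre, on the 5′ side, the 50 bp bins centred at 225 and 175 bp held 45.3 (39.4 to 51.8) and 42.1 summits per Mb (36.4 to 48.4) over all exons. In the class of up to 150 bp those bins held 44.9 (37.6 to 53.1) and 40.1 (33.3 to 47.8), and in the class of 151 to 500 bp the first of them held 45.2 (34.9 to 57.6). The same bins downstream held 31.5 (26.5 to 37.2) and 32.4 (27.3 to 38.2) over all exons. These bins were picked from the profile after their values were seen, and their difference from the rest was not tested.

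**Figure D4:**
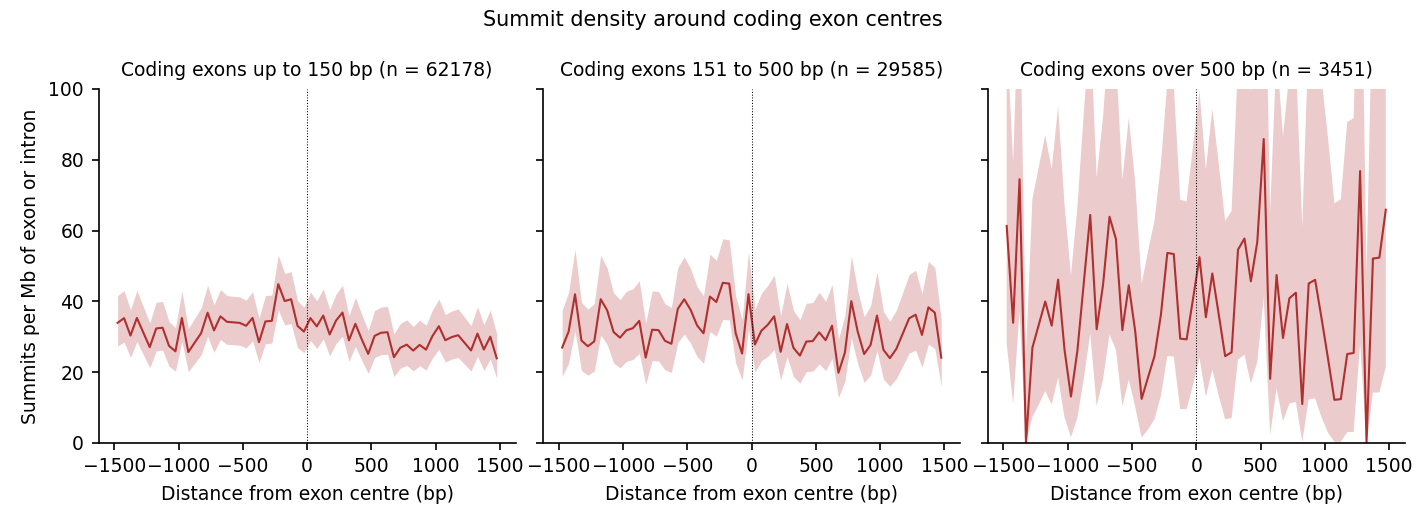
Summits per Mb of eligible exon or intron sequence in 50 bp bins against the distance in bp from the centre of the coding exon, in the direction of transcription, for 3 classes of exon length, with Poisson intervals at 95% as bands (cut at 100 per Mb). Exons of 151 to 500 bp have 31.7 per Mb within 100 bp of the centre and 31.7 at 1000 to 1500 bp, and both shorter classes have a rise about 200 bp upstream of the centre, to 44.9 and 45.2 per Mb.

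Long exons held a share of the members close to their share of the coding sequence. Exons over 500 bp carried 169 members, 29.8% (26.1 to 33.8%), and 26.4% of the eligible bases. Exons over 1000 bp held 41.4 summits per Mb (34.5 to 49.3), the highest of 6 length classes, and the other classes lay between 30.3 and 34.3. The 5 longest exons with a member were in MAP1A, a microtubule-associated protein of neurons, with 8035 bp, SON, a splicing cofactor of nuclear speckles, with 5916 bp, NACA, a chaperone of nascent chains, with 5589 bp, RAI1 with 5565 bp, and ZFHX3, a homeobox factor, with 5460 bp. Each of these 5 peaks lay wholly in coding sequence. NACA was the highest of them, with a fold enrichment of 4.54 from a pileup of 23 (14.6 to 34.5), and ZFHX3 the lowest, with 2.96 from 13 (6.92 to 22.2).

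By position in the coding sequence, 412 members lay in internal coding exons, at 32.3 per Mb (29.3 to 35.6). Last coding exons held 113, at 41.2 per Mb (33.9 to 49.5), first coding exons 15, at 25.8 (14.5 to 42.6), and genes with a single coding exon 27, at 43.6 (28.7 to 63.5).

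Genes with a coding exon peak nearly always had a promoter peak too. Of the 458 member genes, 426 had one, 93.0% (90.3 to 95.2%), against 8760 of 14191 other genes with eligible coding sequence, 61.7% (60.9 to 62.5%). Member genes had more eligible coding sequence, with a median of 1256 bp against 753 bp. In genes with a promoter peak the density was 51.6 summits per Mb of coding exon (47.3 to 56.2) and 42.3 per Mb of intron (41.8 to 42.9). In genes without one it was 5.22 in exons (3.61 to 7.29) and 3.70 in introns (3.51 to 3.91). The ratio of exon to intron density was 1.22 (1.12 to 1.33) in genes with a promoter peak and 1.41 (0.971 to 1.98) in genes without one. Pooled over genes, exons and introns differed less from each other than each differed between the 2 sets of genes. The 34 members in genes without a promoter peak had fold enrichments with a median of 3.76 (3.17 to 4.38), and ZFPM1 and RP1 were among them. Members had another summit within 5000 bp more often than intronic peaks, 83.4% (80.1 to 86.4%) against 77.8% (77.3 to 78.3%).

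Most member genes held a single one. Of 14649 genes with eligible coding sequence, 3.13% held at least 1, with 380 holding 1 and 78 holding more. HMCN1, which encodes the large extracellular matrix protein hemicentin, held 7, with fold enrichments of 2.87 to 3.81 over backgrounds of 4.77 to 10.3. Its gene body of 456559 bp held 274 peaks in all. CENPF, a kinetochore protein of mitosis, held 6 of the 22 peaks in its gene body, and 5 of these 6 lay in the long coding exons of 3404 and 2844 bp. ASPM, a spindle pole protein, held 4 of 12, and 3 of these lay in its exon of 4755 bp. KMT2E, a chromatin regulator of the trithorax group, and MAN2A1, a Golgi mannosidase, held 4 each, of 61 and 154 peaks in the gene body. NUP153, a nuclear pore protein, and SMARCC2 also held 4 each, and the choice of 5 genes among these ties followed the alphabet.

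Genes of the cell cycle had the highest values of coding exon peaks per length among the 21 gene groups examined. The gene lists were chosen with earlier results of these data known, so this ranking describes the lists and tests nothing. Of 53 G2/M genes with eligible coding sequence, 10 held a member, 18.9% (9.44 to 32.0%), against the 3.13% over all genes. Their 22 members gave 227 summits per Mb (142 to 344), against 34.0 over all genes and 51.6 in genes with a promoter peak. All 53 genes had a promoter peak, and of all 9186 genes with one, 426 held a member. The introns of the same genes held 109 per Mb (92.4 to 127), and the ratio of exon to intron was 2.09 (1.28 to 3.28). CENPF and ASPM supplied 10 of the 22, and without them the density was 150 per Mb (77.7 to 263). That interval spans the 109 per Mb in introns of all 53 genes, and the ratio of exon to intron was not computed without CENPF and ASPM.

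The G2/M members were of ordinary height. The highest was in CENPF, with a fold enrichment of 4.78 from a pileup of 28 (18.6 to 40.5), and the other CENPF members ranged down to 2.48. KIF11, the kinesin that pushes the spindle poles apart, had 4.26 from a pileup of 18 (10.7 to 28.4) in coding exon 3 and 3.88 from 21 (12.999 to 32.1) in coding exon 4. TOP2A, the topoisomerase that untangles sister chromatids, had 4.04 from a pileup of 17 (9.90 to 27.2) in exon 17 and 3.59 from 15 (8.40 to 24.7) in exon 16. Both pairs lay in neighbouring exons of the same gene, so they share their surroundings.

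The condensin subunits SMC4 and NCAPH also held 2 each. SMC4 had 4.03 and 3.001, and NCAPH 3.52 and 3.38. ASPM ranged from 2.80 to 4.06. MKI67, the gene of the Ki-67 proliferation antigen, had 3.94 from a pileup of 18 (10.7 to 28.4) in a coding exon of 1080 bp. FOXM1, a transcription factor that binds mitotic genes together with MYBL2, had 3.79 from a pileup of 19 (11.4 to 29.7) in an exon of 152 bp. TPX2, a spindle assembly factor, had 3.73, and CDK1, the kinase that drives entry into mitosis, had 3.69 from a pileup of 23 (14.6 to 34.5). None of the 22 reached a fold enrichment of 5.

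G1/S genes held 10 members in 7 of 47 genes, at 174 per Mb (83.5 to 320), beside 125 per Mb in their introns. All 47 had a promoter peak. MCM3, a subunit of the replicative helicase, held the strongest, with 5.39 from a pileup of 23 (14.6 to 34.5) over the floor, and a second of 3.12. MCM2, of the same helicase, had 2.92 from a pileup of 12 (6.20 to 21.0). That was the lowest pileup among the members, and others shared it, such as those in SETD1A, ZNF219 and CDH11. E2F1, which activates S phase genes, had 3.68, DNMT1, the maintenance DNA methyltransferase, 3.59 and UHRF1 3.53. RIF1, a replication timing factor, had 3.22 and 2.82, and CASP8AP2, which is needed for histone gene expression, had 3.21 and 3.17 in long exons of 3130 and 2246 bp. The list of DREAM and MYB genes, which encode MYBL2 and its partners, held the FOXM1 peak alone in 15 genes, and MYBL2 itself had no member.

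The list of chromatin regulators, which does not include KMT2E, held 18 members in 12 of 77 genes, at 84.1 per Mb (49.8 to 133), beside 115 per Mb in their introns. SMARCC2, a subunit of the SWI/SNF remodelling complex, held 4, with 4.62 the highest of the list. A list of Ewing sarcoma genes, which holds described targets of the fusion and some genes altered in the tumour, had 4 members in 32 genes, 1 each in JAK1 at 4.06, BCL11B at 3.59, STEAP2 at 3.05 and STAG2 at 2.24. Their coding density was 95.8 per Mb (26.1 to 245) beside 201 per Mb in introns. JAK1 is a cytokine receptor kinase, BCL11B a zinc finger repressor and STEAP2 a metalloreductase, and STAG2 is in the list as a gene mutated in this tumour.

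The groups were written by hand or by gene symbol and are not complete, so their counts hold for the genes listed. The other groups shown stood near or below the value over all genes. The DNA repair list held 4 members in 54 genes, at 34.7 per Mb (9.44 to 88.7), of which FANCI, of the Fanconi pathway, had the highest, at 3.94. DCLRE1A, a DNA crosslink repair nuclease that is not in the list and was noticed after its value was seen, had 5.65 from a pileup of 31 (21.1 to 44.002). The centrosome and spindle list held 2, both in CEP295, and it leaves out spindle genes placed in the G2/M list, such as ASPM, TPX2 and KIF11. Genes of the membrane skeleton, which have long coding sequences, held 2 in 36 genes, at 6.15 per Mb (0.745 to 22.2), with the actin crosslinker FLNA at 4.49. Growth factor and guidance receptors held 2 in 49, at 11.1 per Mb (1.34 to 40.1), with the ephrin receptor EPHA2 at 3.60. Zinc finger genes named ZNF, ZFP or ZSCAN held 26 members in 25 of 493 genes, at 37.7 per Mb (24.6 to 55.3), led by ZNF771. Genes of the ADAM and ADAMTS proteases, of the voltage-gated calcium and sodium channels, and of the olfactory receptors held 0 members in 37, 26 and 107 genes, which allows up to 47.2, 39.3 and 45.3 per Mb.

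**Figure D5:**
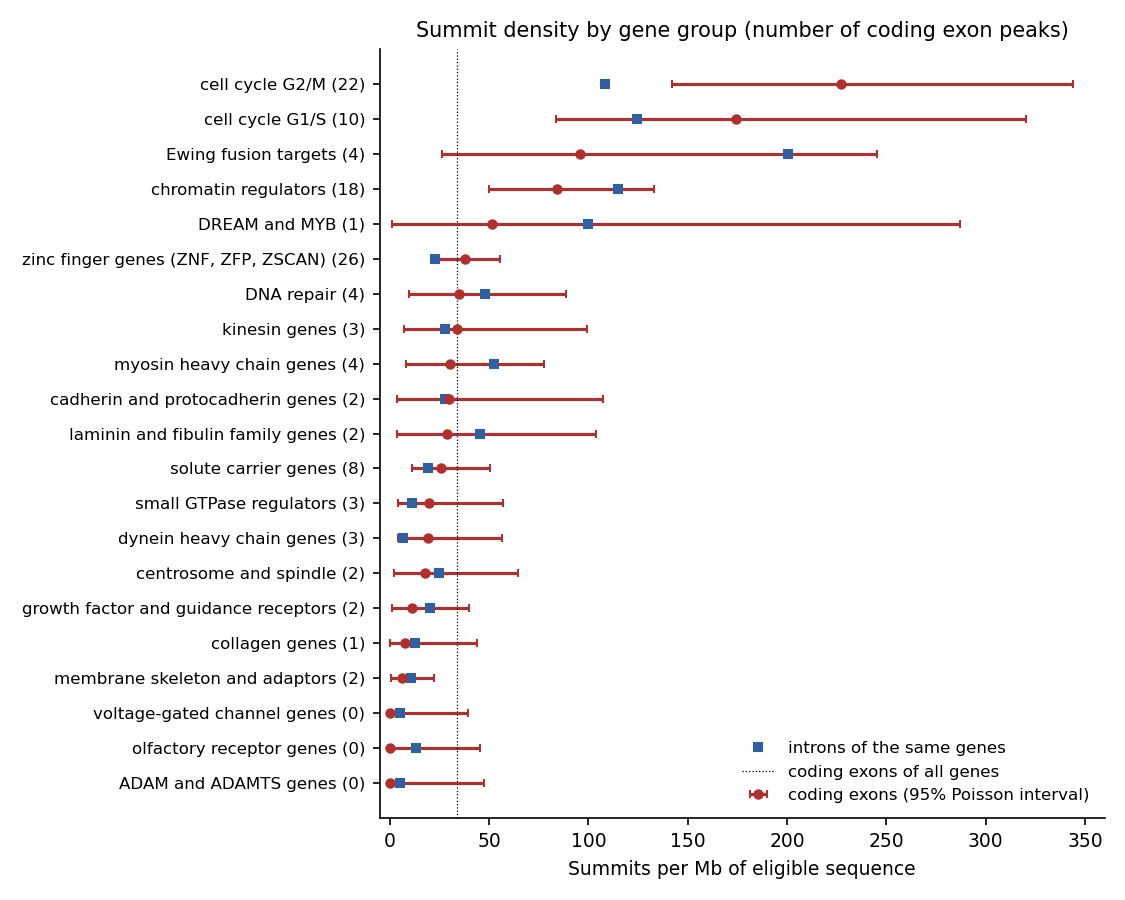
Summits per Mb of eligible coding sequence for each gene group (red, exact Poisson intervals at 95%), with introns of the same genes (blue squares), the value over all genes (dotted line, 34.0) and the number of members in parentheses. G2/M and G1/S genes are highest, at 227 and 174 per Mb, and groups that are low in exons, such as the membrane skeleton at 6.15, are also low in introns. The gene lists were chosen with earlier results of these data known.

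The sequence under the members resembled coding exons in general. Within 50 bp of the summit the median GC content was 47.5% (46.5 to 48.5%), the same as at the midpoints of 91302 coding exons without a peak within 500 bp. It was 39.6% at intronic and 60.4% at promoter peaks. Members held a mean of 2.99 CpG dinucleotides per window, against 2.31 at those exon midpoints, 0.911 at intronic and 6.25 at promoter peaks. The MYB site was in 244 members, 43.0% (38.9 to 47.2%), against 46.4% (46.1 to 46.8%) of exon midpoints, 46.0% of intronic and 40.9% of promoter peaks. With exon midpoints weighted to the GC content of the members, the share was 44.6%.

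None of the other searched motifs that were frequent enough to compare set the members apart from other coding exons either. The CHR was in 11.6% (9.12 to 14.6%) of members and 11.8% of GC-weighted exon midpoints. The CCAAT box (CCAAT, either strand), which often accompanies a CHR in mitotic promoters, was in 15.3% (12.5 to 18.6%) and 14.7%. E2F sites (TTTGGCGC, TTTCCCGC, TTTCGCGC or TTTGCCGC, either strand) were in 2 members and the ETS core (CCGGAAGT, either strand) in 3, too few to compare. Its shorter form CGGAAG, which any ETS core also contains, was in 2.998% (1.76 to 4.76%) of members, 3.48% of GC-weighted exon midpoints and 8.64% of promoter peaks. Members with the MYB site had a median fold enrichment of 3.59 (3.39 to 3.68), and those without it 3.51 (3.37 to 3.59), so the intervals overlapped. Members with the CHR had 3.27 (3.11 to 3.62) and those without it 3.58 (3.46 to 3.59).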

How the data were processed

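MYBL2 ChIP and input DNA of A673 cells were sequenced as 100 bp single-end reads. The authors aligned reads to hg19 with Bowtie2, filtered them on mapping quality and called narrow peaks with MACS2 (2.0.10 in the submitters' processing notes) against the input under a q value limit. What a later cleaning of the list removed is not given in the sources used here. The deposited list holds, per peak, an integer score, a fold enrichment (a linear ratio), and −log10 p and −log10 q values, all computed by the authors' caller. The score was not analysed.

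From these values, whole pileups were recovered for all 66954 peaks (the misfit in −log10 p was at most 3.49e-05, and neighbouring whole numbers missed by 0.00383 or more). The background floor, with a genome of 2700000000 bp and fragments of 164 bp, corresponds to about 56800000 ChIP reads. The recovery and the intervals were checked on simulated data.

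Summits were placed in 19478 canonical protein-coding transcripts of GENCODE lifted to GRCh37, with 193358 TSS positions. Of the 458 member transcripts, 450 read as an open frame. At 565 of 567 members the 100 bp at the summit occur once in the genome. Python 3.11.15, numpy 2.4.6, pandas 2.3.3 and scipy 1.17.1 were used. Intervals are at 95% and cover counting error only, since fragments may be duplicates and neighbouring peaks are not independent. Named peaks were the 15 largest by fold enrichment, 5 nearest the median, the 3 smallest, the pairs either side of each distance limit, those in the 5 longest exons, the 5 genes with most members, all in the cell cycle, DREAM and Ewing lists and the highest of each other hand-written list. The members and gene lists were chosen with earlier results of these data known.

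Alternatives were stricter peak limits, larger distances, other transcript sets, a base-share rule in place of the summit, a wider window, and 2 chosen after the data were seen (peaks of at most 1000 bp, and no peak base in a promoter).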

Additional observations from a re-analysis of the deposited data

How the results depend on the processing

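No paired analysis was possible because the ChIP and the input have 1 library each. No result could be recomputed without a replicate for the same reason. Of the recomputed values, 72 kept their direction and their place within the limits set for each result, 29 moved and 1 reversed. All 10 results kept theirs with any protein-coding transcript in place of the canonical one, with summits more than 2000 bp from a start of any gene type, with summits unique over 100 bp and with no peak base in a promoter. The number of members, 567, became 219 at −log10 q of at least 5, 51 at fold enrichment of at least 5, 315 more than 5000 bp from a TSS and 352 more than 5000 bp from the 3′ end. The share of all peaks became 0.633%, 0.317%, 0.470% and 0.526% in the same order, and 0.603% where at least 50% of the peak bases had to be coding in place of the summit. Under that base-share rule the number of members fell to 404 (366 to 445), which still counted as kept under the limits set for that result. The exon to intron ratio reversed to 0.873 (0.790 to 0.963) under that base-share rule. The rule was applied to coding exons only, and introns kept the summit rule, so this ratio compares unlike counts and shows no reversal of density. More than 5000 bp from the 3′ end the ratio was 1.03. The median eligible exon is 127 bp long and the median member 280 bp wide. The cause of these changes was not tested.

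At −log10 q of at least 5 the median fold enrichment was 4.35 and 23.3% reached 5. At fold enrichment of at least 5, which left 51 members, the median background was 3.58 and the median GC content 59.4%. The share with the MYB site was 37.3% (24.1 to 51.9%), beside 43.0% under the rule. The share of genes with a promoter peak was 90% (78.2 to 96.7%), beside 93.0%, and the share in exons over 500 bp 37.3% (24.1 to 51.9%), beside 29.8%. The intervals of these shares span the values under the rule. More than 5000 bp from the 3′ end the median fold enrichment was 3.38, 6.25% reached 5, the GC content was 44.6%, 95.7% of genes had a promoter peak and 21.0% lay in long exons. More than 5000 bp from a TSS the GC content was 43.6%. Under the base-share rule 5.45% reached 5 and 40.6% lay in long exons. Among peaks of at most 1000 bp, a limit chosen after the data were seen, 5.31% reached 5. With 100 bp either side of the summit the GC content was 45.8% and the MYB site share 68.1%. With the length limit at 1000 bp, 22.2% lay in long exons. Depth limits what can be said of a single member, since a pileup of 12 has an interval of 6.20 to 21.0, and without a replicate no member could be checked in a second library.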

Other observations

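Some members lay close to genes of small RNAs, which the distance rule did not count. Of the 567, 25 lay within 2000 bp of a start that the annotation does not type as protein-coding or lncRNA, among them 7 near a microRNA, 7 near a processed pseudogene and 5 near a small nucleolar RNA. The share of all peaks or of intronic peaks near such starts was not counted, so these counts do not set the members apart. With such starts excluded as well, the exon to intron ratio was 1.21 (1.11 to 1.32), beside 1.23 under the rule. NOP58, which encodes a core protein of the particles that small nucleolar RNAs form, held 2 of the 25, with summits 176 bp from SNORD11B at a fold enrichment of 4.16 and 157 bp from SNORD11 at 3.18. KANSL2 had a summit 516 bp from SNORA34 at 2.95, and ZNF771 one 1695 bp from SNORA42 at 13.3. ZNF180, at 6.07, lay 1587 bp from AC069278.4, a long non-coding RNA gene that carries the older type name lincRNA and so was not counted by the distance rule. These genes were chosen after their values were seen.

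By chromosome, coding exon density ranged from 8.89 summits per Mb (3.26 to 19.3) on X to 49.2 (30.5 to 75.3) on chromosome 20. The introns of X were also the lowest, at 7.93 per Mb, and chromosome 1, with 76 members, the most of any, had 44.1 per Mb in coding exons and 46.5 in introns. Among gene families, SLC29A2, a nucleoside transporter, had 2 members at 6.80 and 5.31, and MYO10, an unconventional myosin of filopodia, had 3 between 2.96 and 5.60. These too were chosen after their values were seen.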
